A study of Mus musculus with 2 samples.

Results

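The cells described here are CD8 T cells of inflamed mouse pancreatic islets that carried transcripts of Entpd1 or Havcr2. They are called non-cycling because they had few or no transcripts of the division genes Mki67 and Top2a. Entpd1 encodes the ectonucleotidase CD39 and Havcr2 encodes the inhibitory receptor TIM-3. A barcode was a member when it had at least 500 detected genes, at most 10% mitochondrial UMIs, at least 2 UMIs of Cd8a and Cd8b1 together, no Cd4 UMI, at least 1 UMI of Cd3d, Cd3e and Cd3g, at most 1 UMI of Cd79a, C1qa and Lyz2, at most 1 UMI of Mki67 and Top2a, and at least 1 UMI of Entpd1 and Havcr2 together. A UMI is a molecular identifier that counts 1 captured transcript. Members were thus chosen by measured UMI counts, so the levels of the rule's own genes describe the choice and are no result. This rule found 602 cells among the 22466 kept barcodes of the series, 359 in one library and 243 in the other. Of these, 86 and 50 had 1 UMI of Mki67 and Top2a, which the rule allowed.

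CD39 stands on the cell surface and turns extracellular ATP and ADP into AMP, which CD73 (Nt5e) can turn into adenosine, a molecule that dampens T cells through the receptor encoded by Adora2a. TIM-3 binds galectin-9, phosphatidylserine, HMGB1 and CEACAM1. On CD8 T cells both proteins are known from chronic infection and tumours, where they mark cells that have met antigen many times and have lost the stem-like factor TCF-1. Both are also made by macrophages and dendritic cells. Islets of NOD mice, a strain with spontaneous autoimmune diabetes, hold many CD8 T cells that recognise beta-cell peptides.

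Leukocytes came from hand-picked islets of female mice aged 12 weeks, were sorted as live CD45+ CD31- cells and were made into 10x Genomics 3' v3.1 single-cell libraries. One library came from WT NOD mice and the other is labelled NOD.Cxcl16-/-, the same strain with a germline defect of the chemokine CXCL16. Both groups share strain, sex, age, tissue and sort. How many mice were pooled for a library is not given in the sources used here. With 1 library per group there is no replicate, so no difference below was tested, and intervals cover counting error only.

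The target gene did not follow the label. Levels are in CPM, the UMIs of a gene scaled to a fixed total of UMIs over the summed cells (the usual CPM scale). Among kept barcodes, Cxcl16 reached 104 CPM (9608 UMIs) in WT NOD and 102 CPM (10046 UMIs) under the label NOD.Cxcl16-/-. A 3' tag outside a deleted stretch checks nothing, and which stretch was deleted is not given in the sources used here. No direction is therefore drawn from the genotype, and the second library is called by its label throughout. The libraries held 12252 and 10214 kept barcodes and shared 45 barcode sequences, 1 of which belonged to a member in one library only.

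Comparison groups came from the same gate. Other non-cycling CD8 T cells, with no UMI of either marker, numbered 1374 in WT NOD and 951 in the library labelled NOD.Cxcl16-/-. Cycling CD8 T cells, with at least 2 UMIs of Mki67 and Top2a, numbered 470 and 255. The median depth was 6130 and 6805 UMIs in the members, 4796.5 and 5336 in the other cells, and 15904 and 16944 in the cycling cells. A rule that asks for a UMI favours deeper barcodes, so shares are also given after each cell was thinned to 2000 UMIs.

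Most members held one marker only. In WT NOD 48.5% had Entpd1 alone, 29.8% had Havcr2 alone and 21.7% had both. In the library labelled NOD.Cxcl16-/- these shares were 42.4%, 32.1% and 25.5%. A single UMI was all that qualified 48.2% and 44.9% of the members. Such single UMIs also occur where the genes are not known to be made: in naive-like CD4 T cells, with a median of 4854 and 5060 UMIs, Entpd1 was seen in 9.27% and 8.70% of cells and Havcr2 in 7.69% and 4.84%.

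The label was checked against markers that the rule did not use. Gzmb, which encodes the apoptosis-inducing protease granzyme B, was seen in 22.5% of thinned WT NOD members (95% exact interval 18.1 to 27.3) and in 27.7% (22.1 to 33.9) in the other library, against 6.47% and 5.90% of the other non-cycling CD8 T cells and 0.130% and 0.101% of B cells. Without thinning the member shares were 41.5% and 39.1%. Cxcr6, the receptor for CXCL16, was seen in 62.1% and 65.5% of thinned members, 19.8% and 21.1% of the other cells and 0.324% and 0.303% of B cells, and in 77.2% and 82.3% of unthinned members. Prdm1, which encodes the effector factor Blimp-1, was seen in 15.7% and 10.5% of thinned members and 3.53% and 3.38% of the other cells. The 3 markers were thus higher in the members of each library, and these markers were chosen with earlier results of these data known.

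Some members also carried dendritic-cell transcripts. The 11 dendritic-cell markers summed to 5026 CPM in WT NOD members and 9714 CPM in members of the library labelled NOD.Cxcl16-/-, against 1436 and 910 CPM in the other CD8 T cells. At least 2 UMIs of the class II genes H2-Aa, H2-Ab1 and H2-Eb1 were found in 61 members (17.0%) and 57 members (23.5%). A smaller number, 22 and 25 members with at least 50 class II UMIs and a median of 16099 and 17656 UMIs in all, held 93.3% and 97.2% of the members' class II UMIs. In the members with fewer than 2 class II UMIs, 298 and 186 cells, the same 11 markers summed to 308 and 348 CPM, against 283 and 303 CPM in the other cells cut in the same way, and Clec9a and Fscn1 were at 0 in both libraries. Xcr1 and Flt3 were also at 0 in the second. The class II genes that set the cut are among the 11 markers, so part of the fall in their sum follows from the cut itself. Over all members H2-Aa stood at 836 and 1659 CPM, H2-Ab1 at 634 and 1390 CPM and H2-Eb1 at 676 and 1439 CPM. The part of dendritic-cell transcripts in the results over all members was not tested. The 5 macrophage markers outside the rule summed to 8.96 and 17.8 CPM in all members, against 11.3 and 15.8 CPM in the other cells. Counts of called genes are therefore given for all members and for those with fewer than 2 class II UMIs. Levels are given for the latter unless said otherwise, and V segments for all members.

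Members made up the same part of the non-cycling CD8 T cells in both libraries within counting error. Their share was 20.7% in WT NOD (359 of 1733, 95% exact interval 18.8 to 22.7). Under the label NOD.Cxcl16-/- it was 20.4% (243 of 1194, 18.1 to 22.7), which differs by -0.364 points (Newcombe interval -3.31 to 2.64). After thinning the shares were 13.5% and 12.9%. Of all kept barcodes, members were 2.93% and 2.38%, a difference of -0.551 points (-0.970 to -0.128), and non-cycling CD8 T cells as a whole were 14.1% and 11.7%. Among cycling CD8 T cells, 55.1% and 54.1% had a UMI of either marker, at a median depth of 15904 and 16944 UMIs.

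Promoter sequence is shown for the marker Havcr2 and for Gzmb and Cxcr6, 2 genes that were higher in members by over 3-fold in each library and were no part of the rule. Each line gives the first 248 of the 250 bases before the RefSeq transcript start (GRCm38.p6), from 5′ to 3′ on the gene's strand. The bases next to the start are thus not printed. Distances are counted from the start to the first printed letter of a match. Capitals mark the letters TGTGGT (RUNX factors), TGANTCA (AP-1) or CTTTGA (TCF and LEF factors) on either strand.
Havcr2, chr11:46454681-46454928, plus strand: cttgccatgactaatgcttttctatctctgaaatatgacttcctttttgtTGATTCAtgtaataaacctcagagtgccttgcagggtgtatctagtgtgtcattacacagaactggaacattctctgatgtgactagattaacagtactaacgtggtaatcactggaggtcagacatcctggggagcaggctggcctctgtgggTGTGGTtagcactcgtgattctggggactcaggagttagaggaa
Gzmb, chr14:56262337-56262584, minus strand: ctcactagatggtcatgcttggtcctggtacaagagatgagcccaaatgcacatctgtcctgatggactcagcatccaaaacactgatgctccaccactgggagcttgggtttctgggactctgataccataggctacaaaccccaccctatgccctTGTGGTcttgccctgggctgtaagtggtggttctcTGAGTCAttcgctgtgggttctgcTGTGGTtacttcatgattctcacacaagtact
Cxcr6, chr9:123806227-123806474, plus strand: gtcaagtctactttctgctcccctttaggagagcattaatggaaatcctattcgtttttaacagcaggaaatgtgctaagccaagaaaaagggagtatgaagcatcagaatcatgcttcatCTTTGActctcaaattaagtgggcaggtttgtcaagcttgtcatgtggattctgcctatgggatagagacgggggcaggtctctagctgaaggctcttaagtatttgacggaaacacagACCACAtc
The Gzmb window held TGTGGT at 93 and 34 bases before the start and an AP-1 match at 58 bases. The Havcr2 window held TGTGGT at 46 bases and an AP-1 match at 200 bases. The Cxcr6 window held ACCACA, the reverse complement of TGTGGT, at 10 bases and CTTTGA at 129 bases. Of 32851 promoter windows of this length, 14.0% held the RUNX letters, 6.73% the AP-1 letters and 13.8% the TCF letters, and neither Entpd1 window held any of the 3. Windows were found for 14 of 18 genes looked up. Among other genes higher in members with fewer than 2 class II UMIs, Prdm1 had an AP-1 match at 48 bases and Ccl3 had TGTGGT at 122 bases. The windows of Tmem163, Id2, Rbpj, Ccr2 and Fasl, also higher there, held none of the 3. The windows of Tcf7 and Il7r, which were lower in members, and of Pdcd1, which was not called, held none either. A match describes letters and does not show a bound site.

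Members had higher Gzmb, Cxcr6 and Prdm1 and lower Tcf7 and Il7r than the other non-cycling CD8 T cells, by at least 2-fold in both libraries. A gene was tested when its mean level was at least 20 CPM and was called when its log2 ratio, with 1 CPM added, was at least 1 in the same direction in both libraries. Over all members, 78 of 5553 genes (1.40%) were called higher and 39 (0.702%) lower. The 12 genes ranked highest were Aif1, Alox5ap, Cxcl16, Atf3, Ifitm3, Bcl2a1a, H2-DMb1, Tyrobp, Gzmb, Il1b, Rnase6 and Cxcl9, most of them known from myeloid cells. Among members with fewer than 2 class II UMIs, 53 of 5490 genes (0.965%) were called higher and 48 (0.874%) lower, and 28 and 34 of these calls were shared with those over all members. Tyrobp then had log2 ratios under 0 in both libraries, with -1.14 in the library nearer 0. All values in the next paragraphs are for members and other cells with fewer than 2 class II UMIs unless said otherwise.

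Genes ranked highest in this set were Gzmb, Neb, Prdm1, Cxcr6, Tmem163, Klri2, Setbp1, Tnip3, Morrbid, S100a4, Ccl3 and Ccl4. Gzmb stood at 294 CPM (95% Poisson interval 271 to 319) in WT NOD members, with 60.7 CPM (54.8 to 67.1) in the other cells, and its log2 ratio was 2.26. Under the label NOD.Cxcl16-/- the levels were 340 CPM (309 to 373) in members, with 47.5 CPM (41.8 to 53.9) in the other cells, and the ratio was 2.81. Its level in all members was close to this, 268 and 300 CPM. Neb, which encodes the muscle protein nebulin, was low but ranked second, at 34.7 and 36.2 CPM in members against 4.27 and 6.85 CPM, and 48 and 35 cells carried it. Morrbid, a long non-coding RNA, stood at 124 and 97.4 CPM in members against 37.6 and 31.7 CPM.

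**Figure D1:**
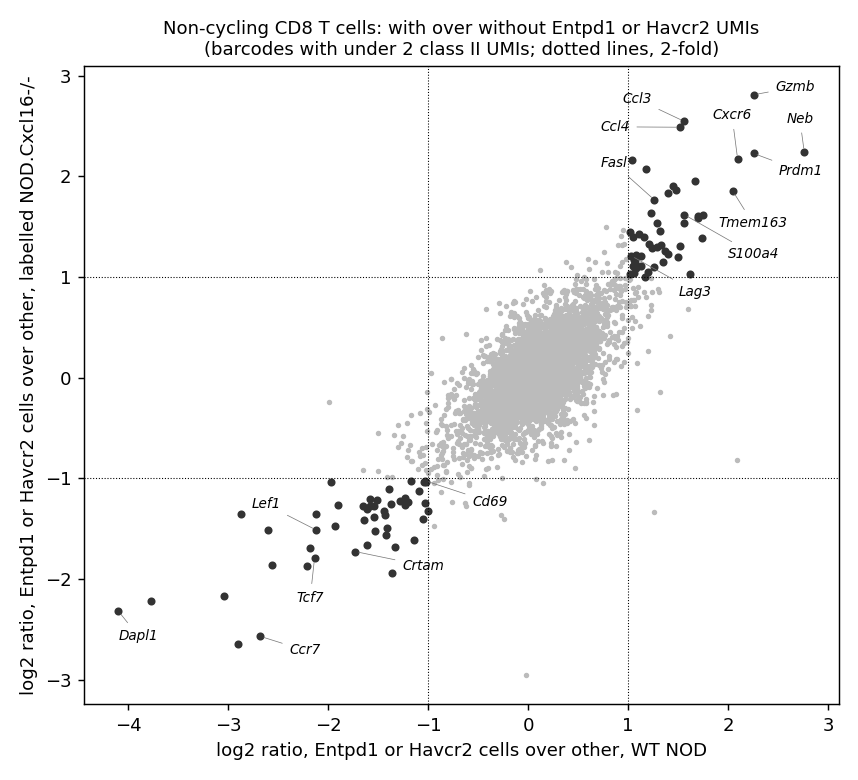
Each point is 1 of the tested genes, with its log2 ratio of Entpd1 or Havcr2 cells over other non-cycling CD8 T cells in the WT NOD library (x axis) and in the library labelled NOD.Cxcl16-/- (y axis), for barcodes with fewer than 2 class II UMIs. Black points passed 2-fold in both libraries, with Gzmb (2.26 and 2.81) at the upper right and Dapl1 (-4.10 and -2.32) at the lower left.

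Of 13 tested cytotoxic genes 4 were called higher in members and none lower: Gzmb, Gzma, the death ligand Fasl and the TRAIL gene Tnfsf10. Over all members Gzma, Gzmb and Fasl were called, 3 of 13. Ratios were above 0 for 10 of the 13 in WT NOD and 11 in the other library. The list's median log2 ratio was 0.69 in WT NOD and 0.79 in the other library, against 0.11 and 0.08 over all tested genes. Fasl stood at 99.3 and 143 CPM in members and 40.8 and 41.5 CPM in the other cells. Perforin (Prf1) had log2 ratios of 1.01 and 0.74 and was not called. Gzma was carried by 29 and 17 members only, and 1 cell held 25.8% of its UMIs in the library labelled NOD.Cxcl16-/-. With at least 2 marker UMIs required, the Gzma ratios over all members had no common direction in the 2 libraries. Gzmk stood at 329 and 282 CPM against 203 and 163 CPM and was not called.

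Among cytokines, the inflammatory chemokines Ccl3, Ccl4 and Ccl5 were called higher, 3 of 8 tested. Over all members Ccl3 and Ccl4 were called, and Ccl5 had 0.91 and 1.05. Ccl5 was among the most abundant transcripts, at 20954 and 22374 CPM in members against 10362 and 8218 CPM. Ccl4 stood at 1237 CPM (1189 to 1286) and 1182 CPM (1124 to 1242) in members and at 432 and 210 CPM in the other cells, with log2 ratios of 1.52 and 2.49. A single member held 19.7% of the Ccl4 UMIs in the library labelled NOD.Cxcl16-/-. Ifng, the interferon-gamma gene, had log2 ratios of 0.84 and 0.97 and was not called. Xcl1, a chemokine that attracts type 1 conventional dendritic cells, was lower in members in both libraries, at 370 and 664 CPM against 608 and 978 CPM, within 2-fold.

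Of 13 inhibitory receptors tested besides the markers, 1 was called higher. Lag3, which binds class II molecules, stood at 258 CPM (237 to 281) in WT NOD members against 126 CPM (117 to 135), and in the other library at 248 CPM (222 to 276) against 106 CPM (97.7 to 116), log2 ratios of 1.03 and 1.21. Over all members Lag3 was not called, with ratios of 0.97 and 0.83. Pdcd1, which encodes PD-1, had log2 ratios of 1.03 and 0.77. Tigit had 0.53 and 0.34, and Ctla4 0.56 and 0.34. The list's median was 0.53 and 0.34, above the 0.11 and 0.08 over all genes. Of 12 costimulatory receptors tested, Crtam alone was called, and it was lower, at 18.1 and 19.6 CPM against 62.5 and 67.3 CPM.

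Of 23 transcription factors of effector and exhausted T cells, 4 were called higher and none lower. Over all members 2 of 23 were called, Prdm1 and Irf8, while Id2 had 1.01 and 0.95, Rbpj 1.28 and 0.88, and Maf 1.07 and 0.50. In members with fewer than 2 class II UMIs, Prdm1 stood at 95.9 CPM (83.0 to 110) and 77.0 CPM (62.8 to 93.5) in members against 19.3 and 15.7 CPM, log2 ratios of 2.26 and 2.23. Id2, an inhibitor of E proteins that favours effector cells, had ratios of 1.05 and 1.11. Rbpj, the nuclear partner of Notch, had 1.35 and 1.14, and Maf had 1.16 and 1.40. Tox, a factor required for exhausted CD8 T cells, was abundant in every group, at 547 and 614 CPM in members and 414 and 494 CPM in the other cells, log2 ratios of 0.40 and 0.31. Eomes had 0.46 and 0.47, and Tbx21, which encodes T-bet, had 0.15 and -0.14.

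Stem-like and naive genes gave the clearest list difference. Of 15 tested, 11 were called lower and none higher, and the median log2 ratio was -1.59 in WT NOD and -1.32 in the library labelled NOD.Cxcl16-/-. Over all members 10 of 15 were called lower, with medians of -1.51 and -1.12. Tcf7, which encodes TCF-1, stood at 55.8 CPM (46.0 to 67.0) in WT NOD members against 249 CPM (237 to 262), and at 75.5 CPM (61.4 to 91.8) against 265 CPM (251 to 279) in the other library. Il7r, the interleukin-7 receptor that supports survival, stood at 44.0 and 87.6 CPM against 195 and 225 CPM. Slamf6, a marker of progenitor exhausted cells, had log2 ratios of -1.02 and -1.04. The lymph-node homing gene Ccr7 had ratios of -2.68 and -2.57, and Lef1 had -2.12 and -1.51. Other genes ranked lowest were Dapl1, Igfbp4, Aff3, Plaur, Patj, Tespa1 and Nrn1.

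**Figure D2:**
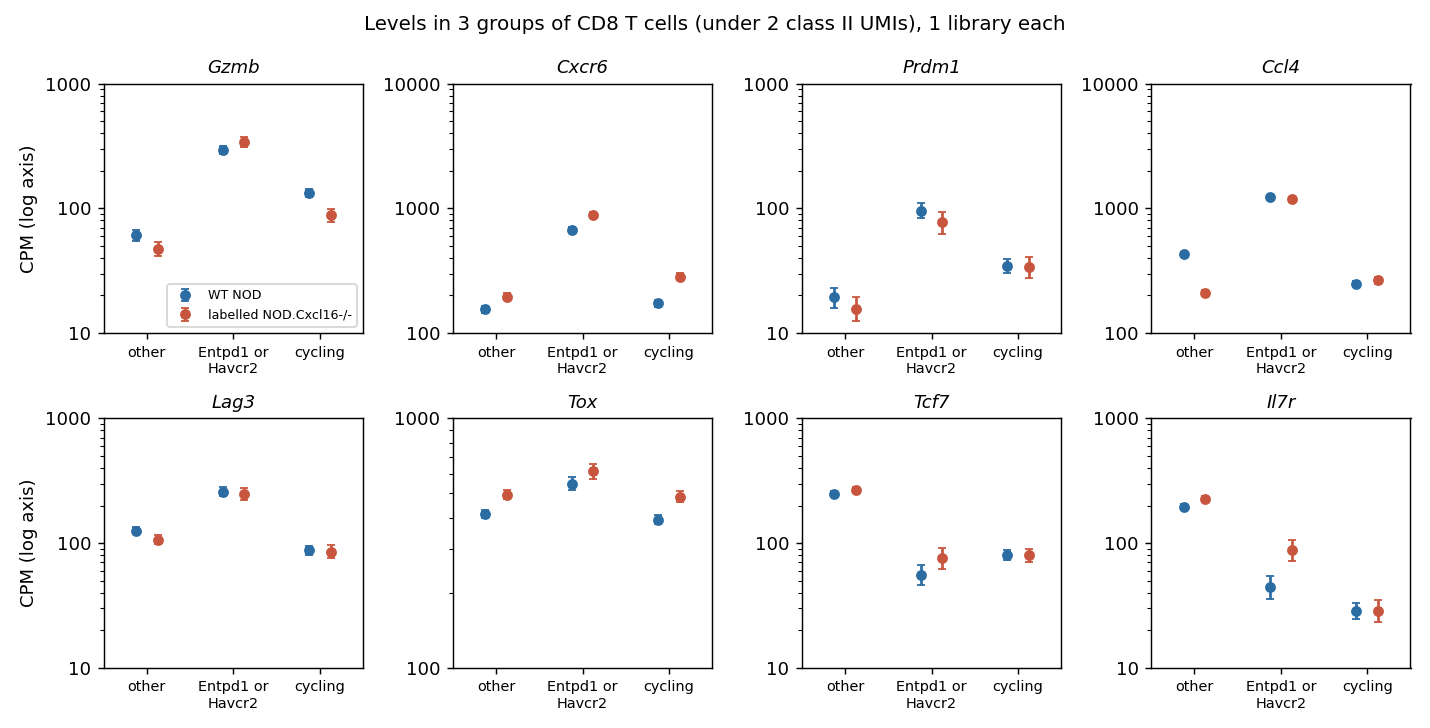
CPM on a log axis of 8 genes in other, Entpd1 or Havcr2, and cycling CD8 T cells with fewer than 2 class II UMIs, 1 point per library, with 95% exact Poisson intervals that cover counting error only. Gzmb, Cxcr6, Prdm1, Ccl4 and Lag3 were highest in the Entpd1 or Havcr2 cells of both libraries, and Tcf7 and Il7r were highest in the other cells.

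Of 19 homing and residency genes tested, 5 were called higher and 1 lower, and over all members 3 were higher and none lower. Cxcr6 stood at 668 CPM (633 to 704) in WT NOD members and 155 CPM (146 to 165) in the other cells, a log2 ratio of 2.10. Under the label NOD.Cxcl16-/- the levels were 884 CPM (834 to 936) and 195 CPM (183 to 208), a ratio of 2.17. The inflammatory chemokine receptor Ccr2 was also called higher, with ratios of 1.48 and 1.87, as were Rgs1 and Rgs16, which encode brakes on chemokine-receptor signalling. The early activation and retention gene Cd69 was called lower, at 192 and 183 CPM against 394 and 374 CPM. Itgae, which encodes the residency integrin CD103, stood at 12.2 and 26.4 CPM against 22.8 and 27.2 CPM and was not called.

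A list of genes related to adenosine and TIM-3 held TIM-3 ligands and also galectins that are not among the ligands named above. Of its 11 tested genes, Lgals1, which encodes galectin-1 and is no such ligand, was called higher. Lgals1 stood at 1533 and 1505 CPM against 734 and 667 CPM. Over all members Lgals3 was called instead, and Lgals1 had 0.91 and 0.90. The galectin-9 gene Lgals9 had log2 ratios of 0.31 and -0.08, and Hmgb1 had 0.34 and 0.34. The CD73 gene Nt5e stood at 5.87 CPM (3.03 to 10.3) in WT NOD members and 20.4 CPM (13.4 to 29.7) in the other library, against 19.3 and 22.3 CPM in the other cells. Adora2a stood at 21.5 and 30.2 CPM in members and 18.2 and 27.4 CPM in the other cells. Ceacam1 had no UMI in any of the 3 CD8 groups of either library.

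The remaining lists held few calls. None of 6 killer lectin-like receptors, 12 glycolysis genes or 17 genes of T-cell receptor signalling passed 2-fold in both libraries, with list medians of 0.62 and 0.81, of 0.32 and 0.27, and of 0.10 and 0.14. Of 15 interferon-response genes, Iigp1 was called lower, and over all members none of 16 was called. Of 17 cell-cycle genes, Ccnb2, Birc5 and Pclaf were called higher, at 40.1 and 27.9, 72.9 and 43.0, and 71.0 and 52.9 CPM in members, although the rule had kept cells with more than 1 UMI of Mki67 and Top2a out of both groups. Over all members none of 17 cell-cycle genes was called. A few cells held much of these UMIs in the library labelled NOD.Cxcl16-/-, where 1 member held 41.4% of Pclaf. The rule allowed 1 UMI of Mki67 and Top2a, and 70 of 298 and 37 of 186 members with fewer than 2 class II UMIs had it. Such a UMI was more frequent in members than in the other cells. With none allowed and class II cells kept, members were 19.0% and 19.1% of non-cycling CD8 T cells, against 20.7% and 20.4% under the rule. Its part in the 3 calls was not tested.

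Cells of a naive-like state, with at least 2 UMIs summed over a short set of naive T-cell genes that includes Ccr7 and Lef1, were 12.8% and 22.6% of all members and 37.1% and 40.3% of the other cells. With these cells left out of both groups, and class II cells left out too, 275 and 158 members were set against 672 and 500 other cells, and 19 genes were called higher and 33 lower. The number of genes tested in that setting is not given here, so these counts cannot be read as shares. Tcf7 stood at 33.6 and 43.5 CPM against 207 and 244 CPM, log2 ratios of -2.59 and -2.46. Il7r had ratios of -2.14 and -1.93, and Crtam -1.90 and -2.04. Lef1, 1 of the genes that set the naive-like state, had -0.51 and -0.59 and was no longer called. How many other stem-like and naive genes kept their call was not counted. Among genes higher in members, Gzmb had 1.87 and 2.47, Prdm1 1.66 and 1.73, Cxcr6 1.56 and 1.87, and Setbp1 1.34 and 1.41. Many other calls were lost in that setting. Of the 4 factors Id2 (0.81 and 0.95), Rbpj (1.02 and 0.86) and Maf (0.67 and 0.79) were no longer called, and of the 4 killing genes Fasl (0.96 and 1.43), Gzma (0.95 and 0.56) and Tnfsf10 (0.78 and 0.77). The same held for Ccl5 (0.53 and 1.11), Ccl4 (1.00 and 1.65, just under the threshold in WT NOD) and Lag3 (0.68 and 1.01). It also held for Rgs1 (0.74 and 0.88), Rgs16 (0.83 and 0.95), Lgals1 (0.78 and 0.98) and Cd69 (-0.91 and -1.19). The lower Tcf7 and Il7r and the higher Gzmb, Prdm1 and Cxcr6 were therefore seen with and without naive-like cells.

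Levels differed with the number of marker UMIs. Just outside the rule, with 0 UMIs, Cxcr6 stood at 155 and 195 CPM, and just inside, with 1 UMI, at 554 and 755 CPM. It stood at 774 and 843 CPM with 2 UMIs and at 734 and 1121 CPM with 3 or more. Tcf7 stood at 249 and 265 CPM with 0 UMIs, 78.6 and 89.5 CPM with 1, 28.8 and 86.1 CPM with 2, and 47.5 and 44.3 CPM with 3 or more. The largest step for both genes lay between 0 and 1 UMI in each library. Id2 and Rbpj were lowest with 0 UMIs and highest with 3 or more in both libraries, at 239 and 230 against 620 and 579 CPM for Id2 and at 102 and 147 against 346 and 375 CPM for Rbpj. Median depth also went up along these groups, from 5036 and 5271 UMIs with 0 marker UMIs to 6436 and 6873 with 3 or more, and its part in the gradient was not tested.

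**Figure D3:**
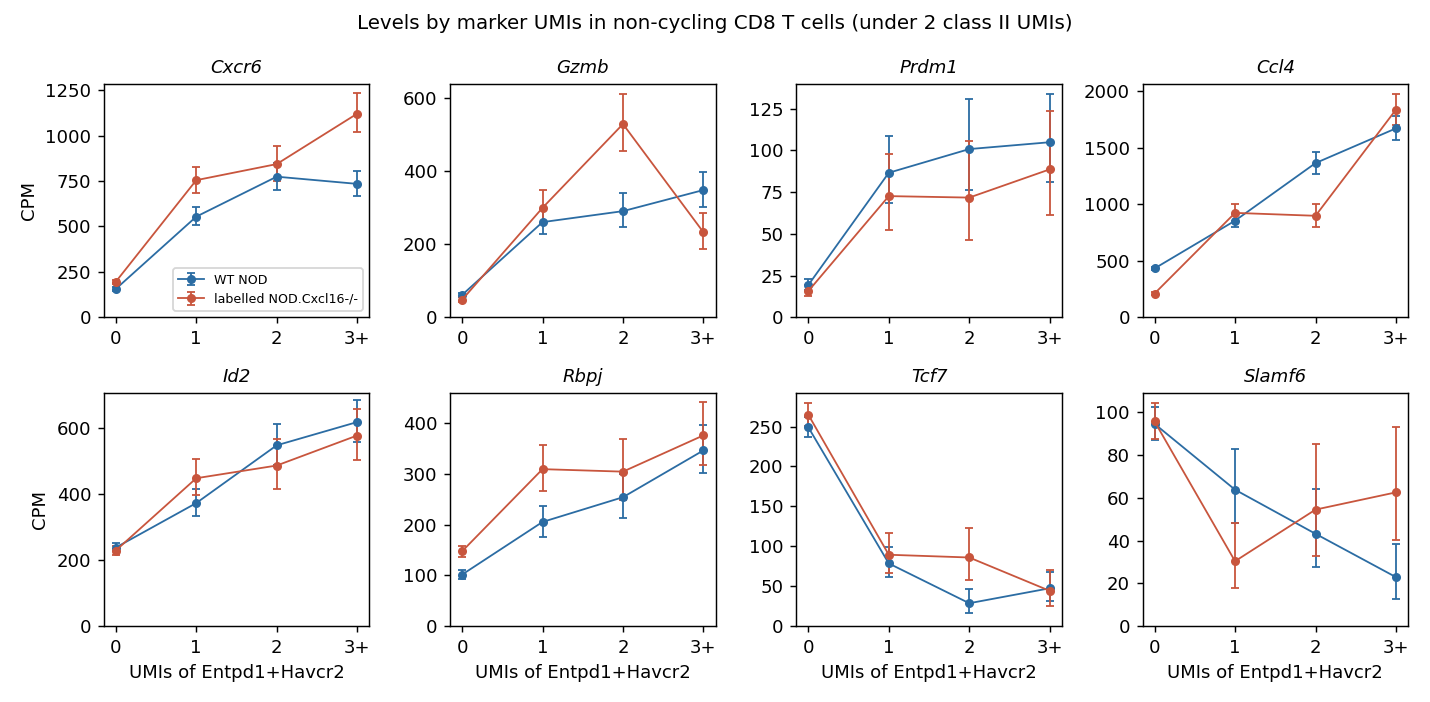
CPM of 8 genes in non-cycling CD8 T cells with 0, 1, 2 and 3 or more UMIs of Entpd1 and Havcr2 together, for barcodes with fewer than 2 class II UMIs, 1 line per library with 95% exact Poisson intervals for counting error. Cxcr6, Prdm1 and Ccl4 stood lowest and Tcf7 highest at 0 UMIs in both libraries, and Slamf6 had no common order past 0 UMIs.

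Cells with Entpd1 alone and with Havcr2 alone differed in chemokines. Ccl4 stood at 807 and 441 CPM in the 151 and 90 cells with Entpd1 alone and at 1783 and 2585 CPM in the 84 and 52 cells with Havcr2 alone. Xcl1 followed the same order, at 292 and 262 CPM against 595 and 1759 CPM, with 1 member holding 19.2% and 21.4% of the Xcl1 UMIs of these members. Pdcd1 stood at 106 and 105 CPM with Entpd1 alone, 164 and 208 CPM with Havcr2 alone and 203 and 195 CPM with both. Lag3 was at 202 and 208, 292 and 260, and 338 and 310 CPM in the same order. Tcf7 was at 63.1 and 82.5 CPM with Entpd1 alone and 46.5 and 98.5 CPM with Havcr2 alone, with no common order.

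Against cycling CD8 T cells, members had fewer division transcripts and more chemokine and migration transcripts. Over all members, 80 of 5681 genes (1.41%) were called higher and 260 (4.58%) lower. With class II cells left out, 74 of 5605 (1.32%) were higher and 247 (4.41%) lower, and 51 and 230 of these calls were shared with those over all members. Lowest-ranked were Hist1h2ab, Hist1h2af, Nusap1, Esco2 and Hist1h2bl, which encode histones and mitotic proteins, and 26 of 28 tested cell-cycle genes were lower. The rule's limit on Mki67 and Top2a bears on this count. Highest-ranked were Ccl4, Ccl5, Maf, Ifi214 and Cxcr6. Cxcr6 stood at 668 and 884 CPM in members against 173 and 284 CPM in cycling cells, and Ccl5 at 20954 and 22374 against 4750 and 5154 CPM.

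The cycling cells resembled members in some genes and the other cells in others. Tcf7 stood at 80.2 and 79.7 CPM in cycling cells, log2 ratios of members over cycling of -0.52 and -0.08, and Il7r at 28.6 and 28.6 CPM. Slamf6 stood at 44.1 and 43.9 CPM in cycling cells and 46.0 and 46.1 CPM in members. Lag3 was 87.4 and 85.6 CPM in cycling cells, below the 258 and 248 CPM of members, and was called with ratios of 1.55 and 1.52, as were Vsir, Cd38, Gzmb, Prf1 and Fasl. The median depth of these cells was 14953 and 15235 UMIs, against 5869.5 and 6088.5 in members, and the part of depth in these ratios was not tested.

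Between libraries, a gene was called at 1.5-fold. Over all members, 200 of 5619 genes (3.56%) were higher in the library labelled NOD.Cxcl16-/- and 101 (1.80%) lower, and in the other non-cycling CD8 T cells the shares were 1.20% and 0.699%, over more UMIs. The 10 highest were Il1b, AY761185, Cxcl2, Adam23, Metrnl, Wdfy4, Ifitm1, Cxcl9, Il1r2 and Slc8a1, beside the dendritic-cell marker sums of 9714 and 5026 CPM. Il1b stood at 36.6 CPM in WT NOD members and 198 CPM in the other library. The 10 lowest were Stmn1, Slpi, Ifit1, Hells, Ifi214, Slfn1, Xaf1, Tcf4, Isg20 and Pola1. With class II cells left out, 142 of 5520 genes (2.57%) were higher and 117 (2.12%) lower, and 57 and 56 of these calls were shared with those over all members. In the other CD8 T cells cut in the same way the shares were 1.18% and 0.610%.

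In members with fewer than 2 class II UMIs, 4 of 14 tested interferon-response genes were lower in the library labelled NOD.Cxcl16-/- and Gbp2 was higher. The list median log2 ratio was -0.31 against 0.03 over all genes, and 4 of the 14 ratios were above 0. Over all members 5 of 16 were lower, Iigp1 was higher and 7 ratios were above 0. Ifi27l2a stood at 2556 CPM (2487 to 2626) in WT NOD and 1422 CPM (1359 to 1488) in the other library. Its log2 ratio was -0.85, and the ratio was -0.78 in the other CD8 T cells and -0.85 in cycling cells. Isg15, a ubiquitin-like antiviral modifier, stood at 63.1 CPM (52.7 to 75.0) and 24.9 CPM (17.1 to 35.0), ratios of -1.31 in members and -1.04 in other cells. Isg20 had -0.94 and Irf7 -0.78 in members. Ifi27l2a and Isg15 thus passed 1.5-fold in the other cells as well.

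The cell-cycle list had more calls. Of 18 genes tested, 6 were lower in the library labelled NOD.Cxcl16-/- (Mcm4, Tyms, Dut, Birc5, Cdca8 and Stmn1), the median was -0.46 and 1 ratio was above 0. Over all members 5 of 16 were lower, with a median of -0.50 and none above 0. In the other CD8 T cells Mcm4 had 0.04, Tyms -0.06 and Dut -0.02, against -0.97, -0.81 and -0.63 in members, while Birc5 had -1.20 against -0.75.

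Several T-cell genes were higher in the library labelled NOD.Cxcl16-/-. Il7r stood at 44.0 CPM (35.4 to 54.1) in WT NOD members and 87.6 CPM (72.4 to 105), and its log2 ratio was 0.98 (counting interval 0.58 to 1.41), against 0.21 in the other cells. Over all members its ratio was 0.53 and was not called. The naive-like share of all members also differed, at 12.8% and 22.6%, and 12 of 13 tested stem-like and naive genes had ratios above 0. With naive-like cells left out as well, Il7r stood at 29.7 and 46.4 CPM in members. Ahr, which encodes the aryl hydrocarbon receptor, had 1.20 in members and 0.90 in the other cells, Ikzf2, which encodes Helios, 0.63 and 0.65, and Xcl1 0.84 and 0.68. The marker genes of the population were close between libraries: Gzmb had 0.21 (0.03 to 0.39), Cxcr6 0.40 (0.29 to 0.52), Prdm1 -0.31 (-0.68 to 0.04) and Tox 0.17.

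Some of the extreme genes of this comparison rested on few cells or had similar ratios in other CD8 T cells. Insulin transcripts Ins2 and Ins1 ranked highest, at 15.2 and 56.6 CPM and at 10.3 and 35.5 CPM, and had ratios of 1.87 and 1.97 in the other cells too. Over all members the order was opposite. Ins2 then stood at 114 CPM in WT NOD and 83.5 CPM in the other library, and Ins1 at 66.1 and 45.9 CPM. Il2ra, the next, rested on 44 UMIs in the library labelled NOD.Cxcl16-/-, of which 1 cell held 56.8%. Among the others of the 10 highest were Ramp3, Pnpla7, Plxdc2, Dst, Ahr and Tec. Slpi and Ighg2c ranked lowest, and 1 WT NOD cell held 91.9% of the Slpi UMIs and 1 held 74.4% of the Ighg2c UMIs. Stmn1, a microtubule regulator of dividing cells, stood at 171 CPM (153 to 190) in WT NOD members and 48.3 CPM (37.2 to 61.7), and its ratio was -1.80 in members, -0.89 in the other cells and -0.58 in cycling cells. Trim5, Hells, Pola1, Isg15, Dtl, Arhgap1 and Mtrf1l made up the rest of the 10 lowest.

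**Figure D4:**
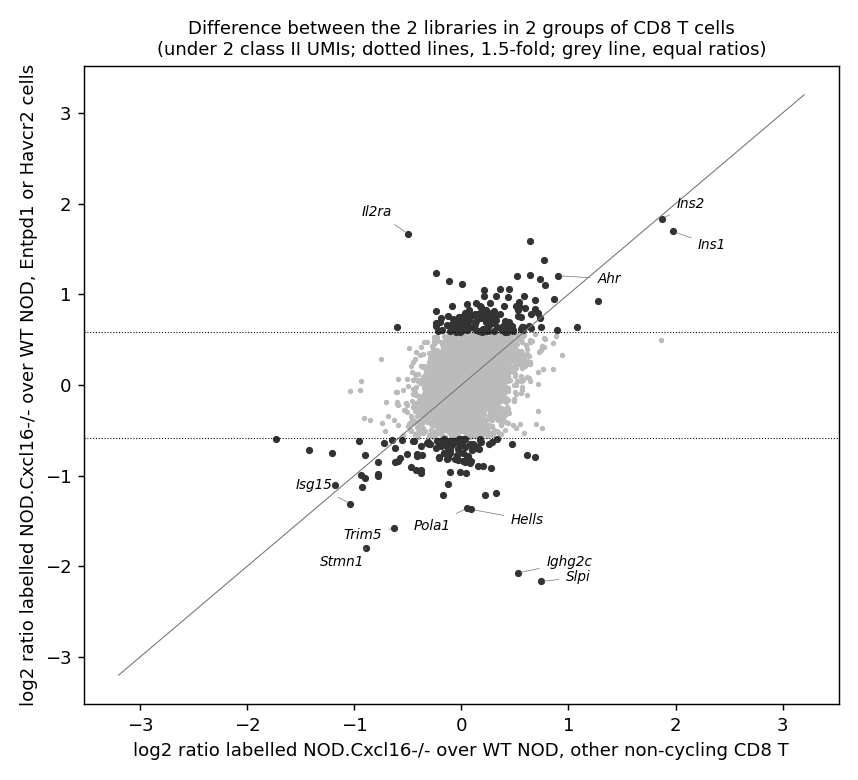
Log2 ratio of the library labelled NOD.Cxcl16-/- over WT NOD in the other non-cycling CD8 T cells (x axis) and in the Entpd1 or Havcr2 cells (y axis), 1 point per tested gene, for barcodes with fewer than 2 class II UMIs. Ins1, Ins2 and Ahr lay above 0 and Isg15 and Stmn1 below 0 on both axes, and Slpi lay at -2.17 in the Entpd1 or Havcr2 cells and 0.74 in the other cells.

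T-cell receptor V segments, which the rule did not use, were uneven among members. A 3' library reads these segments in a minority of cells: exactly 1 alpha V segment was seen in 102 of 359 and 53 of 243 members, and exactly 1 beta V segment in 117 and 58. Trav16n was found in 30 of 102 WT NOD members (29.4%, 95% exact interval 20.8 to 39.3) and 21 of 53 (39.6%, 26.5 to 54.0) in the library labelled NOD.Cxcl16-/-. In the other non-cycling CD8 T cells it was in 20.1% and 21.2%, and in cycling cells in 16.5% and 14.9%. Counted over all cells with a UMI of it, the shares were 15.3% and 14.0% in members, 7.13% and 7.89% in the other cells and 14.3% and 11.4% in the deeper cycling cells, so the gap to cycling cells depended on the denominator. Near-identical copies of alpha V segments exist in the mouse, so reads of Trav16n may be shared with its copies.

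Shares of Trav8d-1 and Trbv3 differed between the libraries in members and also in cycling and other cells, which was not tested. Trav8d-1 was found in 23 of 102 WT NOD members (22.5%, 14.9 to 31.9), 25.5% of cycling cells and 9.54% of the other cells, and in 0 of 53 members of the library labelled NOD.Cxcl16-/-, which allows a share of up to 5.66% by a floor of 3 counts (the exact upper limit is 6.72%). In that library Trav8d-1 was in 7.46% of cycling cells (5 of 67) and 3.37% of the other cells (7 of 208). Counting every member with a UMI of it, including those with further segments, there were 24 of 359 and 2 of 243. Trbv3 was found in 18 of 58 members (31.0%, 19.5 to 44.5) of the library labelled NOD.Cxcl16-/-, 32.7% of its cycling cells and 14.4% of its other cells, against 10 of 117 WT NOD members (8.55%, 4.17 to 15.2). WT NOD cycling cells had Trbv3 in 14.2% and WT NOD other cells in 8.93%. In WT NOD, 31 members had exactly 1 alpha and 1 beta segment, and 9 of them (29.0%, 14.2 to 48.0) paired Trav8d-1 with Trbv19. This pair was in 22 of 91 cycling cells (24.2%, 15.8 to 34.3) and 8 of 78 other cells (10.3%, 4.53 to 19.2). In the library labelled NOD.Cxcl16-/- 7 members had both chains and none had this pair, which was in 1 of 32 cycling cells and 2 of 56 other cells. These segments were chosen after their values were seen, and without junction sequences a shared pair does not show a shared clone.

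**Figure D5:**
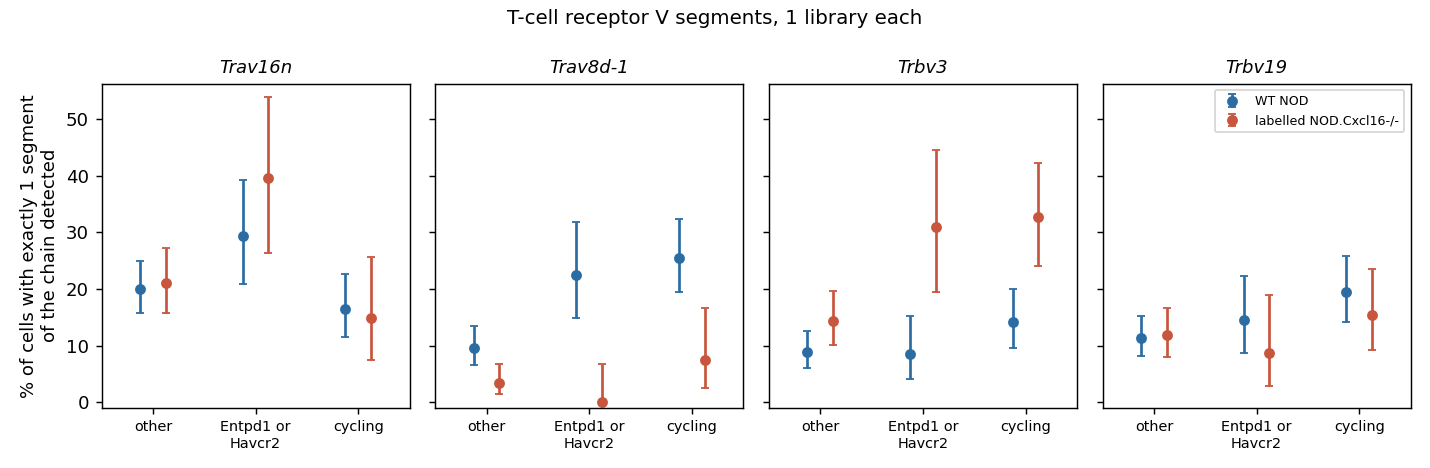
Share of cells with a given V segment, in percent of the cells with exactly 1 segment of that chain, for other, Entpd1 or Havcr2, and cycling CD8 T cells of each library, with 95% exact binomial intervals for counting error. Trav16n stood at 29.4% and 39.6% in Entpd1 or Havcr2 cells, Trbv3 at 31.0% in those of the library labelled NOD.Cxcl16-/-, and Trav8d-1 at 0 of 53 there.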

How the data were processed

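There were 2 single-cell libraries, each on its own. Values deposited by the authors are whole UMI counts, not normalized, for each gene in each barcode. Per the submitters' processing notes the authors used Cell Ranger 7.0.1 and build mm10. Whether intronic reads were counted and the annotation release are not given in the sources used here. Of 32285 gene IDs in the files, 32158 were found in GENCODE M21, and genes of 1 symbol were summed to 32245. Barcodes with at least 500 detected genes and at most 10% mitochondrial UMIs were kept.

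UMI counts were summed per library and cell group and scaled to CPM, with exact Poisson intervals at the 95% level. Shares have exact Clopper-Pearson intervals and differences of shares Newcombe intervals. Log2 ratios had 1 CPM added. Intervals of ratios were exact conditional binomial ones, without the added CPM. A mean of 20 CPM was the minimum for a gene to enter a comparison. Genes of the member rule were kept out of all calls. No test was run, since each group is 1 library and cells are not replicates. Thinning drew 2000 UMIs per barcode, and leaves out 21 and 5 members with fewer. Doublets were kept, and Scrublet scores (scanpy 1.11.5) served as an alternative, with 25 and 20 members among the barcodes of highest score. Analyses used Python 3.11.15, numpy 2.4.6, pandas 2.3.3 and scipy 1.17.1.

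Genes named were the 12 highest and 12 lowest against other CD8 T cells, the 5 against cycling cells and the 10 between libraries, each direction ranked by the library nearer 0, without V, D and J segments, mitochondrial, ribosomal protein and predicted genes, and up to 8 genes of each list. The rule was applied to all members and again to those with fewer than 2 class II UMIs. The members, markers and lists were chosen with earlier results of these data known. Naive-like CD4 T cells passed the member rule's T-cell, lineage and cycling limits with at least 1 Cd4 UMI, none of Cd8a, Cd8b1 or Foxp3 and at least 2 summed over the naive T-cell genes, Ccr7 and Lef1 among them. Some named genes are not reported here. B cells had at least 3 UMIs of Cd79a and Cd79b and none of Cd3d, Cd3e and Cd3g. Promoter windows came from RefSeq (GRCm38.p6). Alternatives varied the barcode filters, depth, doublets, marker and cycling thresholds, class II cells, scaling, the added CPM and the level minimum.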

Additional observations from a re-analysis of the deposited data

How the results depend on the processing

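No paired analysis was possible because each group is 1 library, and no replicate could be left out for the same reason. The member share of non-cycling CD8 T cells differed between libraries by -2.83 to 0.692 points over the alternatives run, within counting error of the value reported. The difference in the share of kept barcodes (-0.551 points) was -1.06 with at least 2000 UMIs per barcode, -0.0296 with both markers required and -1.17 with class II cells left out, which also removes B cells and myeloid cells from the total. Leaving out naive-like cells was chosen after seeing the data.

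Genes higher than in other CD8 T cells (78) numbered 49 after thinning, 135 with both markers, 22 without naive-like cells, 19 without naive-like and class II cells, 46 by the mean of each cell's CPM, 314 with no level minimum and 42 at a minimum of 50 CPM. Genes lower (39) numbered 24 without naive-like cells, 100 with no minimum and 19 at 50 CPM. Genes higher than in cycling cells (80) numbered 138 after thinning, 131 with at least 2 marker UMIs, 203 with both markers, 33 by the mean of cells, 263 with no minimum and 37 at 50 CPM, and genes lower (260) numbered 503 with no minimum and 122 at 50 CPM. Between libraries, genes higher (200) numbered 850 after thinning, 387 with at least 2 marker UMIs, 535 with both, 1757 with no minimum and 72 at 50 CPM. Genes lower (101) numbered 776, 240, 543, 1518 and 30 in the same settings, and 163 with no Mki67 or Top2a UMI. The number of genes tested changed with the setting and is not given here, so these counts cannot be compared as shares. With no level minimum more genes entered, and at 50 CPM fewer. Thinning and stricter markers left fewer UMIs per group, and the cause of the other shifts was not tested.

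Some named genes changed sign, given as log2 ratios of the library nearer 0. Against other CD8 T cells without class II cells, H2-DMb1 was -0.15, Il1b -0.19, Rnase6 -0.79 and Tyrobp -1.14. Without naive-like cells too, Alox5ap was -0.072, Bcl2a1a -0.078, H2-DMb1 -0.34, Rnase6 -1.03 and Tyrobp -1.04. In that setting other genes changed sign in 1 library only, with WT NOD given first. These were Aif1 (0.21 and -1.66), Atf3 (1.18 and -0.34), Ifitm3 (0.57 and -1.62), Cxcl9 (0.34 and -1.50), Cxcl16 (1.32 and -0.48) and Il1b (-0.068 and 0.12). Between libraries without class II cells, Adam23 was -0.57, Cxcl9 -0.97, Ifitm1 -3.67, Slc8a1 -0.49 and Wdfy4 -0.98. After thinning, AY761185 was -3.41, Pnpla7 -0.039, Pola1 0.12, Slc8a1 -0.42, Slfn1 0.013 and Tcf4 0.50, and with both markers AY761185 was -0.82, Slpi 0.11 and Tcf4 0.31. The cause of these reversals was not tested. The main setting and most alternatives covered all members, while most levels above are for those with fewer than 2 class II UMIs. Of the values of named genes under an alternative, 1372 stayed within 0.50 of the main log2 ratio and 207 moved further. Another 23, all of genes called in the main setting, changed sign, for comparisons between cell groups in both libraries. Where the 2 libraries differed in sign, 0 was used as the value, and such a gene is not among the 23. Whether a gene kept its call, and sign changes of genes not called or in 1 library only, were not counted.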
